A study of Homo sapiens with 8 samples.

Results

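The genes described here are 10 members of the microtubule system: the alpha-tubulins TUBA1A, TUBA1B, TUBA1C and TUBA4A, the beta-tubulins TUBB, TUBB2A, TUBB4B and TUBB6, the gamma-tubulin TUBG1 and the stathmin STMN1. They were chosen by name, each through the probe sets on the array that the platform annotation assigns to that gene symbol alone, and they are 10 of 19775 genes with such a probe set. For 9 of the 10 the brightest probe set passed the filter on dim values, and TUBB6 did not. The samples were RL cells, an established human B lymphoma line with the t(14,18) translocation, grown for 14 days as multicellular aggregates (MALC). All cells were stained with pyronin Y, which binds RNA, and a cytometer separated a pyronin Y dull fraction, labelled quiescent, from a pyronin Y bright fraction, labelled cycling. There were 4 arrays of each fraction, all from the same cell line and culture time, so the groups differ by the sorting gate. Nothing in the labels ties replicate samples to separate cultures, so the p-values cover the spread among these arrays, and that spread may be technical.

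Microtubules are hollow polymers of alpha- and beta-tubulin dimers. They form the mitotic spindle in dividing cells and carry transport and shape in resting ones. Human cells encode several alpha and beta isotypes that are nearly identical in their bodies and differ mainly in their tails. Gamma-tubulin starts new microtubules at the centrosome and along the spindle. Stathmin binds free tubulin dimers and promotes microtubule shrinkage until mitotic kinases phosphorylate it. Cells also adjust tubulin mRNA to the amount of free dimer, through TTC5, which recognises tubulin as it emerges from the ribosome. Tubulin is the target of vincristine, which is used against B cell lymphoma.

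Values are MAS5 intensities, a linear brightness per probe set, as scaled by the authors to the same trimmed mean of 500.1 on every array. Array medians of the non-control probe sets ran from 71.9 to 97.9 on cycling and from 103.4 to 113.4 on quiescent arrays. Differences are log2 intensity, quiescent minus cycling, tested with limma and adjusted over all 11678 genes. Because every array was scaled to the same average, they say how a transcript stood relative to the rest of its array, and fewer cells with a transcript cannot be told apart from less of it per cell. The scaling matters for small differences. Centring each array on its median shifts every difference by −0.41, and the median of all genes tested was 0.081 as deposited, −0.33 centred and −0.037 after quantile normalization. A sign of RNA quality also differed between the groups. The log2 ratio of 3′ to 5′ signal of the ACTB controls was 2.02 ± 0.20 on cycling and 2.57 ± 0.18 on quiescent arrays (SD, n = 4 each; p = 0.0286 by a two-sided exact permutation test, which is the smallest value that 70 assignments give, or 0.0381 adjusted over 4 ratios). The other ratios differed less, by 0.31 for ACTB 3′ to middle and 0.16 for GAPDH 3′ to 5′. For GAPDH 3′ to middle the difference was 0.0041 (exact permutation p = 0.914). The ACTB ratio of 3′ to 5′ signal moves with every difference described here, and its part in them was not tested. Of the B cell markers, 5 of 5 with a probe set passed the filter, with summed intensities of 51200 to 61800 on cycling and 51000 to 62500 on quiescent arrays. Of 17 T cell, myeloid and stromal markers, 5 passed, and no list of these summed to more than 582 on any array.

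Relative to the rest of the transcripts, 7 of the 9 members tested were lower in quiescent cells, by unequal amounts. TUBG1 and STMN1 were lower by 3.01-fold and 2.73-fold, TUBB by 1.84-fold, and TUBA1A, TUBA1B, TUBB4B and TUBA4A by 1.23-fold to 1.48-fold. TUBA1C and TUBB2A were not called. Of the 9 members tested, 7 were called lower and 0 higher at a limma adjusted p under 0.05, where 15.4% of all genes tested were called lower and 12.2% higher. At an unadjusted p under 0.05 the counts were also 7 and 0, but the share of all genes at that threshold was not computed. The median difference of the 9 was −0.46, against 0.081 for all genes. The members are bright, and all 9 passed a stricter filter at an intensity of 422. There 7 of the 9 were called lower, as were 1671 of all 7201 genes, whose median was −0.03. With centred arrays 8 were called lower and 0 higher (32.5% and 2.8% of all genes), and after quantile normalization 5 and 0 (16.3% and 10.5%). Under all 3 scalings 5 were called lower, namely TUBA1B, TUBB, TUBB4B, TUBG1 and STMN1, and 0 higher, against 14.1% and 2.74% of all genes. Leaving out cycling sample 3 or cycling sample 4 reduced the count from 7 to 4. The share of all genes called in those fits was not computed, so the drop cannot be set against theirs. On 6 of the 9 every quiescent array was below every cycling array, as for 15.4% of all genes, and 3 overlapped.

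**Figure D1:**
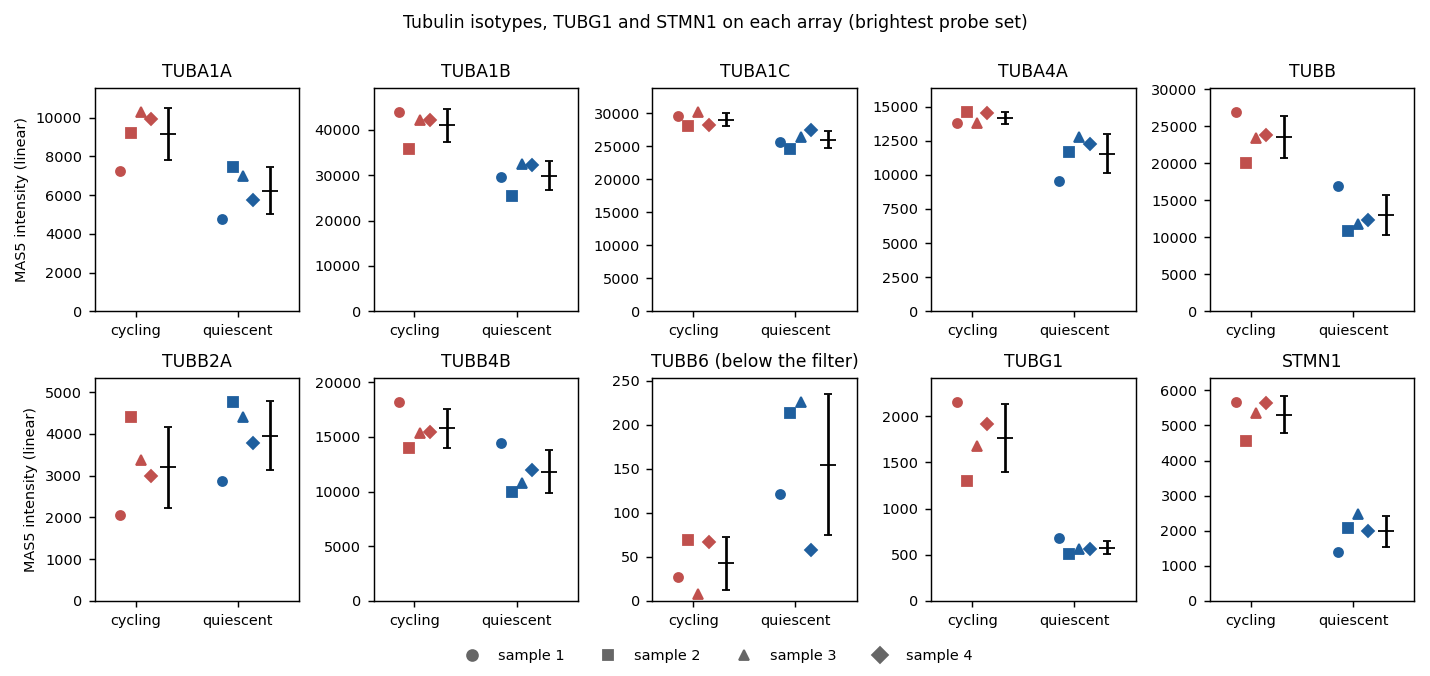
Intensity of each member on each of the 8 arrays (linear MAS5 scale from 0, brightest probe set, symbols mark the sample number), with mean and SD beside each group (n = 4). TUBG1 and STMN1 separate widely, TUBA1C separates narrowly, TUBB2A overlaps, and TUBB6 stays at or below 226.

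TUBG1 encodes the gamma-tubulin from which microtubules are nucleated. Its intensity on cycling samples 1 to 4 was 2158, 1298, 1682 and 1912, and on quiescent samples 1 to 4 it was 686, 508, 559 and 563. The lowest cycling array, sample 2, lay well above the highest quiescent one. The means were 1762 ± 366 and 579 ± 75.7 (SD, n = 4 each). The log2 difference was −1.59 (SE 0.18, limma adjusted p = 5.35e-05), and 1.61% of the genes tested had a lower one. The paralog TUBG2 was dimmer, at 195 ± 19.0 and 175 ± 45.0, and its difference of −0.18 (SE 0.25) did not pass (limma adjusted p = 0.63).

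STMN1 encodes stathmin, the protein that holds tubulin dimers. The cycling arrays read 5679, 4556, 5366 and 5645, and the quiescent arrays 1396, 2068, 2473 and 1987. The groups did not overlap, and quiescent sample 1 was the lowest of all. The means were 5312 ± 523 and 1981 ± 444 (SD, n = 4 each), and the quiescent minus cycling value was −1.45 in log2 units (SE 0.17, limma adjusted p = 6.81e-05). A second STMN1 probe set was below the filter, at 42.1 ± 32.1 and 59.6 ± 33.7. For TUBG1 and STMN1 the differences under the 3 scalings ran from −2.003 to −1.59 and from −1.86 to −1.36, and both were called under all of them.

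The promoters of these most strongly lowered members are shown beside those of TUBB4B, a beta isotype that was moderately lower, and TUBB2A, the one tested member whose difference was above 0 as deposited. Sequences are the 250 bases before an annotated start from RefSeq (GRCh38.p14), 5′ to 3′ on the strand of the gene. All 10 members had at least 1 start, 16 in all. Capitals mark exact matches, on either strand, to 4 forms of the E2F site (TTTCCCGC, TTTGGCGC, TTTGCCGC and TTTCGCGC), to the CHR element of late cell cycle genes (TTTGAA) or to the CCAAT box. None of the printed matches overlap. The windows are STMN1 at chr1:25906420-25906669 (minus strand, 1 of 3 listed starts), TUBG1 at chr17:42609433-42609682 (plus strand), TUBB4B at chr9:137241037-137241286 (plus strand) and TUBB2A at chr6:3157545-3157794 (minus strand).
STMN1: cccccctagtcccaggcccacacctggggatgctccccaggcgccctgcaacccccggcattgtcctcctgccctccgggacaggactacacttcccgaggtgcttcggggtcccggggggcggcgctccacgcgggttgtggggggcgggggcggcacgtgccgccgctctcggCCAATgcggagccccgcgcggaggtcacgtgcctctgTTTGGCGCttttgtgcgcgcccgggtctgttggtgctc
TUBG1: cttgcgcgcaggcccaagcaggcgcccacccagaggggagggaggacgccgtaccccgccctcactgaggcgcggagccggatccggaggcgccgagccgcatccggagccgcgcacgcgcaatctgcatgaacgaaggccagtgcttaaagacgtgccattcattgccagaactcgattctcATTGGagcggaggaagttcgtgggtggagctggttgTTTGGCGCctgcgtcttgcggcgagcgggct
TUBB4B: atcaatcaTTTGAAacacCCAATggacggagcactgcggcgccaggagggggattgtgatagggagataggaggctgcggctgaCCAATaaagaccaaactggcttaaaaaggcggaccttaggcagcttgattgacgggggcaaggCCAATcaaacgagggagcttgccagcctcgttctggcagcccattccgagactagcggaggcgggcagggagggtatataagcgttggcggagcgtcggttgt
TUBB2A: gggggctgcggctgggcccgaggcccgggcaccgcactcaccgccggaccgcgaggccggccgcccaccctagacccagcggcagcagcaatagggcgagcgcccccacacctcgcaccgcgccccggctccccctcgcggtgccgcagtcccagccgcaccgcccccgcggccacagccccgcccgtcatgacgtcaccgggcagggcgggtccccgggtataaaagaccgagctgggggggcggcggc

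STMN1 and TUBG1 each held TTTGGCGC, starting at −38 and −31 from the start, with a CCAAT box, on the gene's strand in STMN1 and on the opposite one in TUBG1, at −75 and −67. TTTGGCGC occurred in 0.55% of the 35116 promoter windows of this length, and among the 16 member windows in these 2. Another STMN1 start held TTTCCCGC (1.39% of all windows) at −250, and no member window held TTTGCCGC (0.49%) or TTTCGCGC (0.439%). TTTGAA was found in 3 of the 16 member windows, of TUBB4B and TUBA1C, against 13.3% of all windows. CCAAT was found in 9 of the 16, against 32% of all windows, or for 7 of the 10 members, against 37% of all genes, and the TUBB4B window held it 3 times. The 9 include overlapping windows of TUBA1C that hold the same CCAAT site. The TUBB2A, TUBA1B and TUBA4A windows held none of these letters. These are matches of letters, and no binding was measured.

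TUBB, the main beta-tubulin of lymphoid and most dividing cells, had the largest difference of the 3 beta isotypes that passed the filter. Its cycling arrays read 26936, 20057, 23465 and 23880, and its quiescent arrays 16893, 10798, 11860 and 12296. All quiescent arrays were lower than all cycling arrays, although quiescent sample 1 stood above the others of its group. The log2 difference was −0.88 (SE 0.14, limma adjusted p = 5.48e-04). Its other probe sets had −0.93 (SE 0.10) and −0.76 (SE 0.14), both called lower in a fit of all probe sets. The first of these carries no mark for shared probes, and it fell from 18853 ± 1313 to 9917 ± 666 (SD, n = 4 each).

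TUBB4B encodes a widely expressed beta isotype that is also used in cilia. It read 18215, 14020, 15332 and 15480 on cycling arrays and 14452, 9956, 10806 and 12001 on quiescent arrays. Quiescent sample 1 lay above cycling sample 2, so the groups overlapped. The difference was −0.42 (SE 0.13, limma adjusted p = 0.0239), and its other probe set had −0.53 (SE 0.13). The call was lost without cycling sample 1, 3 or 4 or quiescent sample 2 or 3, with adjusted p over all 8 such fits from 4.65e-03 to 0.0723.

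TUBB2A, a beta isotype best known from neurons, went the other way as deposited. Its cycling arrays read 2065, 4406, 3366 and 2982 and its quiescent arrays 2877, 4771, 4410 and 3779. The spread within each group was larger than the difference between their means, 3205 ± 969 and 3959 ± 830 (SD, n = 4 each). The difference of 0.33 (95% interval −0.14 to 0.80) did not pass (limma adjusted p = 0.276), and it was −0.082 with centred arrays. Without cycling sample 1 it was 0.14 and without cycling sample 2 it was 0.50, the lowest and highest of the 8 fits that leave out 1 array (adjusted p = 0.0847 to 0.639). TUBB6 read 27.1, 69.0, 7.90 and 67.1 on cycling arrays and 121, 214, 226 and 58.1 on quiescent arrays. Its mean log2 value was under the filter, set at an intensity of 83.3, and cycling samples 2 and 4 read higher than quiescent sample 4. Signal this dim may be background. Without the filter its difference was 2.11 (SE 0.70, limma adjusted p = 0.0642).

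**Figure D2:**
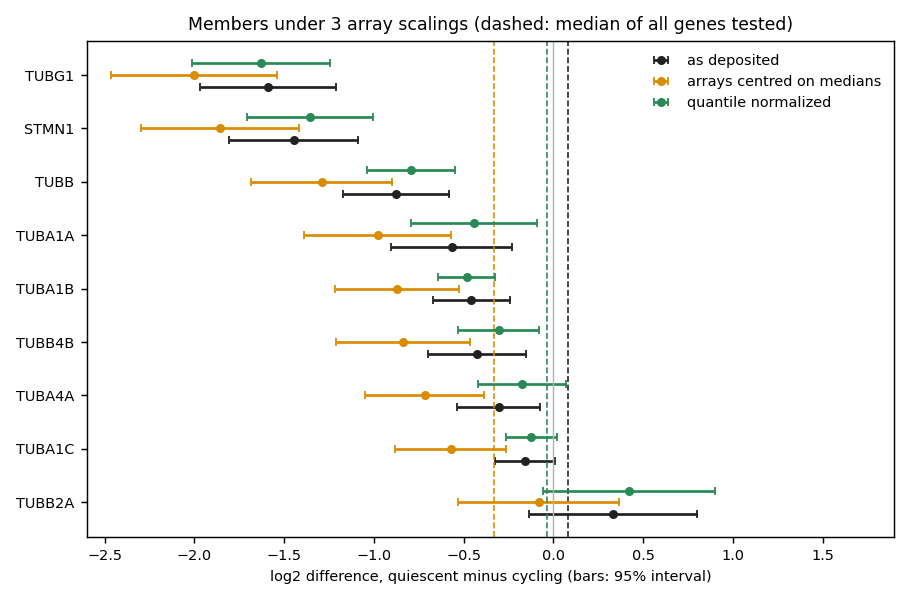
Log2 difference of the 9 tested members, quiescent minus cycling, with 95% intervals from limma, as deposited, with arrays centred on their medians and after quantile normalization. Dashed lines give the median of all genes tested under each scaling (0.081, −0.33 and −0.037). TUBG1 and STMN1 lie farthest below these lines and TUBB2A above them.

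The alpha isotypes had smaller differences than TUBB, from −0.57 to −0.16. TUBA1B, the main alpha-tubulin of most dividing cells, read 43936, 35679, 42200 and 42248 on cycling arrays and 29516, 25463, 32403 and 32289 on quiescent arrays. The groups did not overlap, and sample 2 was the lowest of both. The difference was −0.46 (SE 0.10, limma adjusted p = 4.42e-03). Its 4 other probe sets above the filter had differences of −0.43 to −0.29 and were all called lower, while a far dimmer one read 64.6 ± 16.5 and 69.8 ± 15.01.

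TUBA1A, the alpha isotype prominent in developing neurons, read 7242, 9225, 10295 and 9910 on cycling arrays and 4771, 7430, 6982 and 5733 on quiescent arrays. Sample 1 was the lowest of each group, and cycling sample 1 lay below quiescent sample 2. The difference was −0.57 (SE 0.16, limma adjusted p = 0.0164). It did not pass after quantile normalization (−0.44, adjusted p = 0.0618) or without cycling sample 3 (−0.51, adjusted p = 0.0556) or 4 (−0.52, adjusted p = 0.0518).

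TUBA1C, a close relative of TUBA1B, gave a different answer from each of its probe sets. The brighter one read 29573, 28096, 30170 and 28228 on cycling arrays and 25594, 24589, 26355 and 27468 on quiescent arrays. All quiescent arrays were lower, but the difference of −0.16 (95% interval −0.33 to 0.01) did not pass (limma adjusted p = 0.147). The other probe set fell from 26448 ± 1700 to 18791 ± 627 (SD, n = 4 each), with −0.49 (SE 0.085) and an adjusted p of 1.28e-03 in the limma fit of all probe sets. With centred arrays the brighter probe set was called lower too (−0.57, adjusted p = 5.51e-03).

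TUBA4A, an alpha isotype abundant in blood cells and platelets, read 13817, 14605, 13797 and 14526 on cycling arrays and 9512, 11641, 12796 and 12286 on quiescent arrays. Quiescent sample 1 was lowest and the groups did not overlap. The difference was −0.30 (SE 0.11) at a limma adjusted p of 0.0497, at the edge of the threshold. It did not pass after quantile normalization (−0.17, adjusted p = 0.298), without the filter (adjusted p = 0.0786), or in any of the 8 fits that leave out 1 array (adjusted p = 0.0502 to 0.118).

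Probe sets for tubulins share sequence. Affymetrix marks those with probes that can match other transcripts by the suffix _x_at, and 11 of the 17 member probe sets above the filter carry it, as do 4 of the 9 brightest ones (TUBA1B, TUBA1C, TUBB and TUBB4B). How much of their signal comes from other isotypes was not tested. Of the 17, 14 were called lower, 0 higher and 3 not (the brighter TUBA1C set, TUBA4A and TUBB2A), against 10.8% lower and 16.3% higher among all 27307 probe sets tested. A further 2 probe sets name a member together with another gene and were not used.

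**Figure D3:**
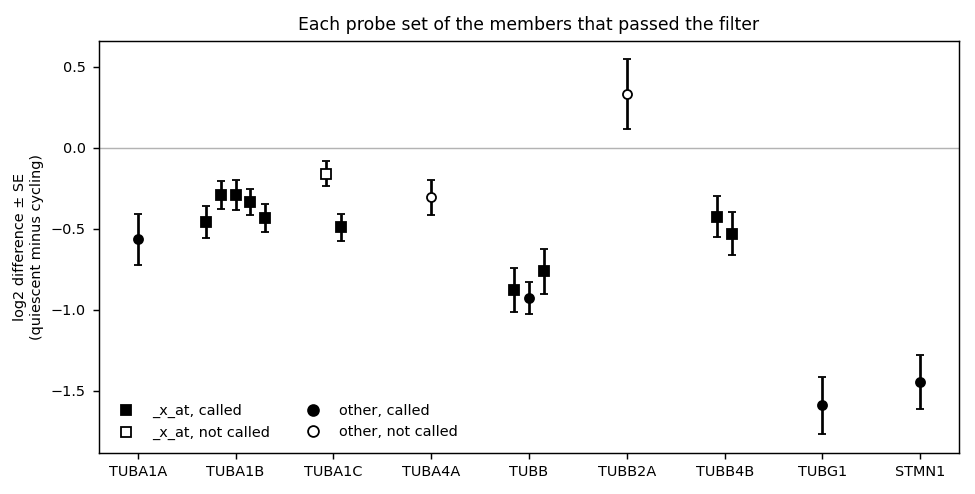
Log2 difference ± SE, quiescent minus cycling, of the 17 probe sets of the members that passed the filter, in a limma fit of all probe sets. Squares are _x_at sets, circles others, filled symbols adjusted p under 0.05. The 5 TUBA1B and 3 TUBB sets lie close together, while those of TUBA1C lie apart.

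Differences between isotypes on the same array are the same as deposited and centred, and were compared for the 9 pairs within the alpha and beta families. TUBB minus TUBB4B was 0.56, 0.52, 0.61 and 0.63 in log2 units on cycling arrays and 0.22, 0.12, 0.13 and 0.035 on quiescent arrays. The arrays of each group lay close together and the groups did not overlap. Quiescent minus cycling was −0.45, with SDs of 0.050 and 0.078 (n = 4 each, exact permutation p = 0.0286, or 0.129 adjusted over 9 pairs). The probe sets of TUBB and TUBB4B used here both carry the _x_at mark. What shared probes do to this small spread was not tested, and the unmarked TUBB set was not compared in this way. For TUBA1B minus TUBA1C, at their brightest probe sets, quiescent minus cycling was −0.30, again with no overlap (exact permutation p = 0.0286, adjusted 0.129). The other TUBA1C set had a difference of −0.49, close to the −0.46 of TUBA1B, so the −0.30 depends on the TUBA1C set used. For TUBB minus TUBB2A the quiescent minus cycling value was −1.21, and cycling sample 2 overlapped quiescent sample 1 (exact permutation p = 0.0571, adjusted 0.171). The 6 remaining pairs had differences of −0.41 to 0.76 with unadjusted exact p from 0.0857 to 0.657. No pair passed after adjustment. The smallest p of this design is 0.0286, so with 9 pairs adjusted together, a pair that separated alone could not have passed.

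**Figure D4:**
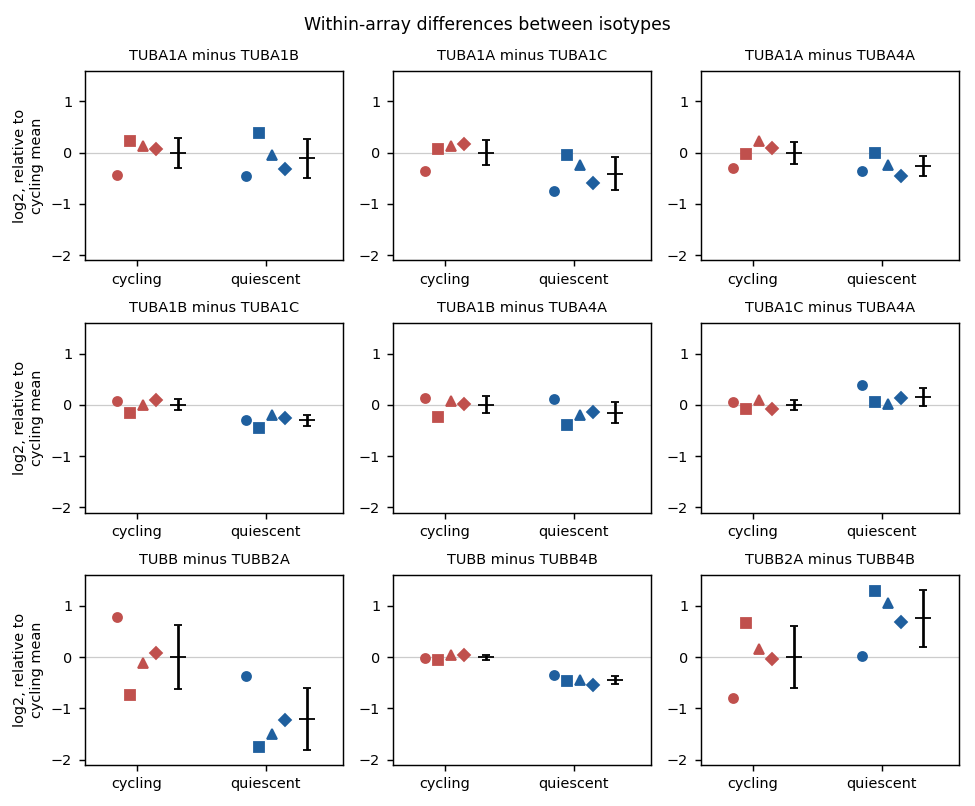
Log2 difference between 2 isotypes on the same array, for the 9 pairs, set to a cycling mean of 0, with mean and SD beside each group (n = 4, symbols mark the sample number). TUBB minus TUBB4B, both from _x_at probe sets, separates with little spread, and the pairs with TUBB2A spread widely in both groups.

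Genes that serve tubulin were described from 5 lists. The opening list holds the remaining tubulins and stathmins. Of 16, 12 had a single-symbol probe set and 6 passed the filter. By limma 1 of the 6 was called lower (16.7%, against 15.4% of all genes tested) and 0 higher (against 12.2%). At an unadjusted p under 0.05 the counts were 2 and 2, with no share of all genes computed. Without cycling sample 3 or quiescent sample 2, 2 were called lower, and without cycling sample 2, 1 was called higher. The gene called lower on all arrays was TUBB3, known as a neuronal beta isotype, whose probe set carries the _x_at mark. It read 8942, 7036, 8725 and 8292 on cycling and 6329, 4754, 4991 and 6293 on quiescent arrays, without overlap (difference −0.57, SE 0.13, limma adjusted p = 6.35e-03). TUBB2B was below the filter at 36.7 ± 27.4 and 29.3 ± 9.13 (SD, n = 4 each).

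Of 14 measured genes for tubulin folding and autoregulation, 6 were called lower (42.9%, against 15.4% of all genes tested), 1 higher (7.14% against 12.2%) and 7 were not called, with a median of −0.43 against 0.081 for all genes. VBP1 and PFDN2, subunits of prefoldin, which hands new tubulin to the chaperonin, were lower by 0.95 and 0.87 on the log2 scale, with VBP1 going from 11445 ± 1487 to 5896 ± 422. TBCB, a cofactor that binds alpha-tubulin, had −0.72 (SE 0.16), and PFDN1, PFDN4 and ARL2 were also called lower. PFDN5, another prefoldin subunit, was the 1 called higher, at 0.41 (SE 0.11, limma adjusted p = 0.0188), but had −0.0061 with centred arrays and lost its call without cycling sample 3 or quiescent sample 3 or 4. TBCA, a beta-tubulin cofactor, had −0.35 (SE 0.18, limma adjusted p = 0.161), and TTC5, the autoregulation factor, −0.16 (SE 0.24, limma adjusted p = 0.66).

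Of 18 measured genes of the gamma-tubulin ring, its anchors and augmin, 6 were called lower (33.3%, against 15.4% of all genes tested), 1 higher (5.56% against 12.2%) and 11 not, with a median of −0.32. Of the 7 measured subunits of augmin, which branches microtubules within the spindle, 3 were called lower and 4 were not called. HAUS7 had −1.22 (SE 0.19, limma adjusted p = 5.69e-04), going from 450 ± 54.6 to 193 ± 17.8, and HAUS1 and HAUS2 had −0.84 and −0.70. The uncalled HAUS8 and HAUS6 had −0.72 and −0.28, and HAUS3 and HAUS5 0.16 and 0.37. For HAUS5 every quiescent array was above every cycling array (limma adjusted p = 0.117). TUBGCP2, MZT1 and NEDD1, of the ring and its recruitment, were also called lower. AKAP9, which anchors the ring at centrosome and Golgi, was the 1 called higher (0.59, SE 0.14, limma adjusted p = 6.05e-03), and it was not called with centred arrays (0.18, adjusted p = 0.438). With centred arrays 12 of the 18 were called lower (66.7%, against 32.5% of all genes), and without cycling sample 2, 2 were called higher.

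Of 18 measured tubulin-modifying enzymes, 4 were called lower (22.2%, against 15.4% of all genes tested) and 0 higher (against 12.2%) by limma. Their median was 0.047, against 0.081 for all genes. At an unadjusted p under 0.05 the counts were 4 and 2, again with no share of all genes computed. Of those 2, AGBL2 passed the filter only through its quiescent arrays. Its cycling mean of 65.8 lay under 83.3 and its quiescent mean was 147. Without cycling sample 2, 2 were called higher, and without quiescent sample 1, 1 was. TTL, the ligase that restores the terminal tyrosine of alpha-tubulin, read 387, 337, 421 and 424 on cycling and 151, 201, 202 and 176 on quiescent arrays. No array of one group reached the other (difference −1.11, SE 0.20, limma adjusted p = 1.47e-03). TTLL12, a divergent member of the same family, had −1.08 (SE 0.14), TPGS2, of the polyglutamylase complex, −0.85 (SE 0.21), and MATCAP1, a detyrosinase, −0.64 (SE 0.19).

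Of 27 measured microtubule-binding and severing proteins, 6 were called lower (22.2%, against 15.4% of all genes tested), 4 higher (14.8% against 12.2%) and 17 not, with a median of −0.055. MAPRE1, which encodes the plus-end tracking protein EB1, went from 6852 ± 492 to 3811 ± 250 (difference −0.85, SE 0.11, limma adjusted p = 1.64e-04), and CKAP5, a microtubule polymerase, had −0.74 (SE 0.14). FIGNL1, a relative of the severing enzyme fidgetin, had −1.005 (SE 0.18) and CKAP2, a spindle protein, −0.93 (SE 0.19). TACC3 and KATNA1 were also called lower. TACC1 was called higher under all 3 scalings, going from 1343 ± 223 to 2746 ± 430 (difference 1.03, SE 0.16, limma adjusted p = 5.32e-04). The linker protein CLIP2, also among the 4, passed the filter only through its quiescent arrays: its cycling mean of 64.1 lay under 83.3 and its quiescent mean was 205. Its difference of 1.83 was 1.35 after 32 was added to every intensity, so its size is uncertain. CAMSAP2, which binds minus ends, had 0.89 and MAP7D1 0.66, and neither was called with centred arrays.

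**Figure D5:**
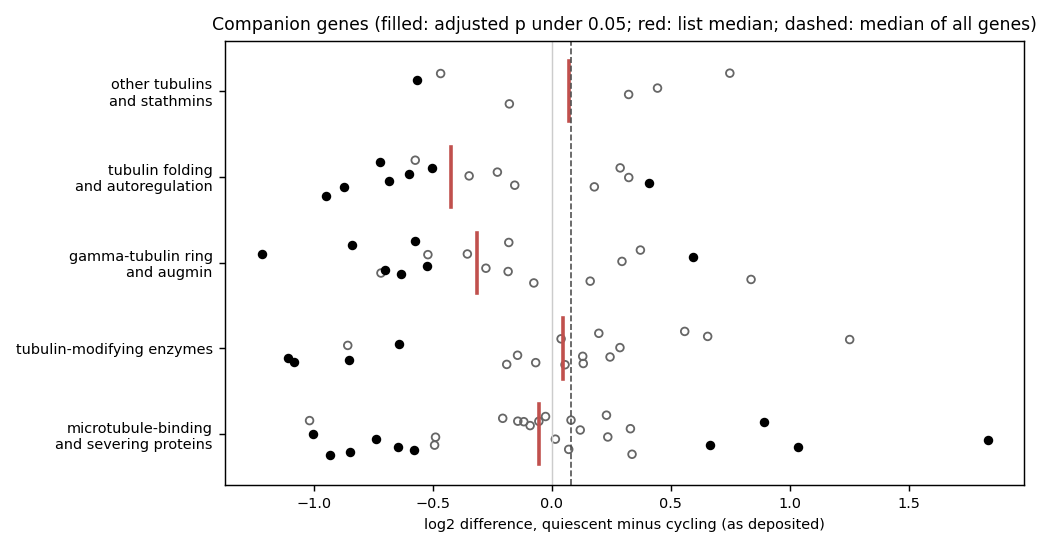
Log2 difference, quiescent minus cycling as deposited, of each measured gene in the 5 companion lists. Filled points passed an adjusted p under 0.05, red bars are list medians (0.072, −0.43, −0.32, 0.047 and −0.055 from top to bottom) and the dashed line is the median of all genes tested, 0.081.

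The genes whose profile over the 8 arrays lay nearest to that of STMN1 were sought by the root mean square distance of log2 values, each gene set to its own mean. The difference between the groups was left in, so the distance favours genes with a quiescent minus cycling difference like that of STMN1. Among 11677 genes the median distance was 0.86. The 5 nearest were GMNN (0.14), ATP6V0A2 (0.15), C17orf75 (0.19), HAUS7 (0.19) and TMEM106C (0.19). GMNN, which encodes geminin, the inhibitor of replication licensing, went from 8752 ± 1226 to 3535 ± 803 (SD, n = 4 each). TUBG1 was 151st by this distance (0.33), the nearest of the other members, and TUBB2A, at 0.96, the farthest.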

How the data were processed

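Groups and sample numbers come from the sample titles. The authors deposited MAS5 intensities on a linear scale, 1 column per array, per the submitters' processing notes, with the version not given in the sources used here. From the values, the authors had brought every array to the same trimmed mean of 500.1 (2% cut at each end). Log2 was taken with a floor at an intensity of 1, and 62 control probe sets were left out. The platform annotation, which can be old, named 41097 probe sets with 1 symbol and 1801 with several, which were not used. A gene's brightest probe set over 8 arrays stood for it, and 8097 genes under an intensity of 83.3 (the median of all probe sets) were left out. An earlier analysis of these data centred arrays on this median, which dim probe sets set. Here the deposited scaling was kept, so that intensities and differences share a scale, and centring and quantile normalization were run beside it.

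Groups were compared in R 4.3.3 with limma 3.58.1 (lmFit, then eBayes with trend and robust settings, no covariates). P-values were Benjamini-Hochberg adjusted, with a threshold of 0.05. In a simulation over 11678 genes with 200 changed it recovered 91% of 4-fold and 59% of 2-fold changes, with 13 false calls. The simulated noise was independent between arrays, and far more genes were called in the data (1802 lower and 1430 higher). These rates may therefore not hold for the data. Within-array differences had two-sided exact permutation tests. Tables used Python 3.11.15 and pandas 2.3.3. Named genes are all members, up to 3 called genes per list and direction, 8 further fixed genes and the 5 nearest to STMN1; other called genes of a list were named after their values were seen. The promoter motifs and the printed promoters were likewise chosen with values known. Members and lists were chosen with earlier results of these data known. Precision is limited by the 4 arrays per group.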

Additional observations from a re-analysis of the deposited data

How the results depend on the processing

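Of 242 differences under an alternative, 217 kept direction and side of the threshold, and of 168 counts of calls, 142 stayed within 1.5 times. The 242 include the within-array pairs, which could hardly cross the threshold in this design. They also include refits of the same brightest probe sets, which leave the difference unchanged. The 217 were therefore in part fixed in advance. With centred arrays TUBB2A turned to −0.082 and the brighter TUBA1C probe set was called at −0.57; after quantile normalization TUBA1A (−0.44) and TUBA4A (−0.17) were not called, and TUBA1A minus TUBA1B turned to 0.042. TUBA4A, at −0.30, also missed the threshold without the filter and in the fit of all probe sets, and the other TUBA1C probe set was called at −0.49. Centring, which lowers every difference, gave 2 other tubulins lower, 0 folding genes higher, 12 gamma-tubulin ring and augmin genes lower and 0 higher, and 11 microtubule-binding genes lower and 2 higher. Quantile normalization gave 2 other tubulins lower. The stricter filter, which tests fewer genes, gave 2 other tubulins and 2 modifying enzymes lower and 2 microtubule-binding genes higher. Adding 32 gave 1 modifying enzyme higher, AGBL2, which passed the filter only through its quiescent arrays. Leaving out 1 array in turn gave 4 to 6 members lower, 1 to 2 other tubulins lower and 0 to 1 higher, 0 to 1 folding genes higher, 1 to 2 gamma-tubulin ring genes higher and 0 to 2 modifying enzymes higher. No share of all genes was computed for the fits that leave out 1 array. TUBA1A minus TUBA1B ran from −0.28 to 0.0082, above 0 without quiescent sample 1. No pair passed, though a pair that separated alone could not have done so. TUBA1A then ran from −0.68 to −0.44, TUBA4A from −0.36 to −0.21 and TUBB4B from −0.53 to −0.35. Where construction does not show the cause, the cause was not tested.

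With the sample number as a replicate block, 2232 genes were lower and 2002 higher, against 1802 and 1430. Same-numbered arrays correlated in their deviations from the group means by 0.34, 0.20, 0.11 and 0.036. Cycling samples 1 to 3 correlated best with their own number and sample 4 with quiescent sample 3 (0.14). The numbers were not taken as pairs, since 1 of the 4 correlations is under 0.1 and the labels name no shared culture. Under the block 7 members were lower and 1 higher, TUBB2A (0.33, limma adjusted p = 0.0276). Its differences within numbers 1 to 4 were 0.48, 0.11, 0.39 and 0.34. The block also gave 2 other tubulins lower, 2 gamma-tubulin ring genes higher and 1 modifying enzyme higher, again AGBL2.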

Other observations

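STMN1 and TUBG1 were also set against TUBA1B and TUBB on the same array, in 4 pairs chosen after their values were seen and given as a description. STMN1 minus TUBA1B in log2 units was −2.95, −2.97, −2.98 and −2.90 on cycling samples 1 to 4, an SD of 0.032. On quiescent samples 1 to 4 it was −4.40, −3.62, −3.71 and −4.02, an SD of 0.35. The group means differed by −0.99. STMN1 minus TUBB differed by −0.57, TUBG1 minus TUBA1B by −1.13 and TUBG1 minus TUBB by −0.71. None of the 4 overlapped between groups, but the members with the largest falls were picked for them, so no test is given. The share of all gene pairs without overlap was not computed. With no overlap, the same sign within each of the 4 sample numbers was fixed in all 4 pairs and is no further result. On quiescent arrays STMN1 minus TUBB spread from −3.60 in sample 1 to −2.262 in sample 3. The lowest cycling value, in sample 1, was −2.246, so this pair separated only barely.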
